A study of Arabidopsis thaliana with 16 samples.

Results

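The hormone abscisic acid (ABA) was added to glucose-fed germinating seeds of Arabidopsis thaliana, and 4 RNA sequencing libraries from these seeds were compared with 4 libraries from seeds given glucose without ABA. These 8 libraries were chosen by their labels, out of 16 in all, and every gene was described. All groups were wild type, strain Col-0, and each library came from whole germinating seeds, so seed coat, endosperm and embryo were measured together. All seeds had 3 days of cold imbibition at 4 °C before growth at 22 °C under constant light, on Murashige and Skoog medium of reduced strength. Transfer to liquid medium followed at 24 hours after imbibition, treatment lasted 6 hours, and harvest was at 30 hours. The ABA plus glucose group received 5 µM ABA and 60 mM glucose, and the glucose group received 60 mM glucose alone. The remaining 8 libraries came from seeds given 5 µM ABA alone (4) and from control seeds with no added compound (4). They entered the same fit, and so the estimate of spread, the scaling and the filter behind every call. Beyond that they are used only to set the ABA effect in glucose beside the ABA effect without it. No osmotic control for glucose is among these groups. The labels call the replicates biological and do not say whether they were separate seed batches, so p-values measure the spread between these samples.

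ABA holds seeds dormant and stops germination under stress. It binds receptors of the PYR/PYL family, which then block clade A protein phosphatases 2C. The SnRK2 kinases freed in this way activate bZIP transcription factors such as ABI5, whose binding element has the core letters ACGTG. In maturing seeds the same pathway drives genes for desiccation protection, storage proteins and oil body coats, while germination needs gibberellin, reserve use and cell wall loosening.

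Library totals ran from 11316409 to 14809626 estimated counts with ABA plus glucose and from 9698419 to 12793206 with glucose. A count of 0 in a library allows up to 0.202 to 0.267 CPM (counts scaled to the size of the library) with ABA plus glucose and 0.232 to 0.304 CPM with glucose, counting error only. The first principal component held 60.1% of the variance of the 8 libraries and placed the ABA plus glucose libraries between 25.7 and 30.8 and the glucose libraries between -30.1 and -26.3. All 9 markers of germinating seeds were detected. By the test described below, 6 of them were called higher with ABA plus glucose, 5 at least 2-fold, and none lower. The list includes storage protein and oil body genes treated below, while ICL was not called. Isocitrate lyase (ICL), the glyoxylate cycle enzyme of oil-using seedlings, averaged 24004 ± 438 CPM with ABA plus glucose and 24587 ± 779 CPM with glucose (SD, n = 4 each). Of 5 endosperm markers 3 did not pass the filter on low counts, and ZOU and NAC1L had 0 counts in all 8 libraries. The summed level of the endosperm list was 0.111% to 0.126% of counts with ABA plus glucose and 0.115% to 0.128% with glucose. That of 8 photosynthetic tissue markers was 0.167% to 0.173% with ABA plus glucose and 0.165% to 0.172% with glucose. In whole seeds, fewer cells of a type and less RNA per cell cannot be told apart.

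A gene is said to be called, and to have risen or fallen, at an adjusted p under 0.05 in edgeR's quasi-likelihood test, with Benjamini-Hochberg adjustment over the 17083 of 27655 genes that passed the filter. ABA in the presence of glucose raised 994 genes, 5.82% of those tested, and lowered 1017, or 5.95%. Below, ± is the SD of 4 libraries after a mean CPM and the SE after a log2 fold change. The rises were larger than the falls. At least 2-fold, 331 genes rose (1.94%) and 190 fell (1.11%). At least 8-fold, 78 rose and 7 fell. Many calls were small, with 442 rises and 600 falls under 1.5-fold. Where the call of a gene is said below to be lost without 1 library, that library gave the highest adjusted p. Other libraries could end the call too, and their number is given at the end. The median absolute log2 fold change was 0.67 among the called rises and 0.49 among the called falls. Without overlap between the 4 libraries of either group stood 929 of the 994 rises and 945 of the 1017 falls; among all genes tested 9.54% lay above without overlap and 9.95% below. The genes that rose together held 63468 CPM with ABA plus glucose and 34052 CPM with glucose. Those that fell held 48387 CPM with ABA plus glucose and 63092 CPM with glucose.

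Of the 12 largest rises, 3 encode late embryogenesis abundant (LEA) or related desiccation proteins. AT2G42560, a LEA-domain protein, had 466, 518, 461 and 426 CPM in the ABA plus glucose libraries and 9.34, 9, 8.67 and 9.01 CPM in the glucose libraries. RD29A (AT5G52310), a cold- and ABA-responsive hydrophilic protein, had 141, 136, 112 and 109 CPM with ABA plus glucose and 3.17, 2.47, 2.01 and 2.43 CPM with glucose. Every ABA plus glucose library lay far above every glucose library for both genes. The log2 fold change was 5.70 ± 0.15 (SE, adjusted p = 8.47e-18) for AT2G42560 and 5.62 ± 0.13 (adjusted p = 2.81e-18) for RD29A. AT4G39130, a dehydrin, averaged 7.06 ± 2.2 CPM with ABA plus glucose and 0.195 ± 0.075 CPM with glucose.

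Genes at or near 0 with glucose made up much of the rest. STS (AT4G01970), annotated as stachyose synthase, an enzyme of the raffinose family of sugars that seeds store as they dry, had 23, 21, 12 and 18 counts with ABA plus glucose and 0 counts in every glucose library. It was at least 21.6-fold higher, against a floor of 3 counts over the glucose group. AtMT4a (AT2G42000), a metal-binding metallothionein of seeds, had 80 counts over the ABA plus glucose group and 1 over the glucose group, a ratio of 70 (95% counting interval 12.2 to 2800). HMT3 (AT3G22740), a homocysteine S-methyltransferase that makes methionine, had 64 counts with ABA plus glucose and 1 with glucose, a ratio of 56 (9.7 to 2247). The uncharacterized genes AT2G19320 and AT3G63040 showed the same pattern, AT2G19320 with 176 counts over the ABA plus glucose group and 3 over the glucose group, a ratio of 51.4 (17.3 to 251). AT3G63040 had 88 counts with ABA plus glucose and 2 with glucose, a ratio of 38.5 (10.4 to 323). NSFBX (AT5G04010), an F-box protein, averaged 3.06 ± 0.76 CPM with ABA plus glucose and 0.0915 ± 0.12 CPM with glucose. NADP-ME1 (AT2G19900), a cytosolic malic enzyme, was at a higher level, with 51.7 ± 1.9 CPM with ABA plus glucose and 1.82 ± 0.2 CPM with glucose. The 4 other malic enzyme genes tested were not called. TIP3-1 (AT1G73190), the water channel of the protein storage vacuole, averaged 42.8 ± 8 CPM with ABA plus glucose and 1.55 ± 0.093 CPM with glucose. Its exons overlap those of AT1G73200 over 290 bases, and in 6 of the 8 libraries its counts are not whole, so some reads may belong to the neighbour. Its relative TIP3-2 (AT1G17810) averaged 10.2 ± 1.3 CPM with ABA plus glucose and 1.03 ± 0.32 CPM with glucose.

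The 12 largest falls were of genes with low counts in both groups. AT1G29660, a GDSL-type lipase, had 0, 0, 1 and 0 counts with ABA plus glucose and 17, 17, 11 and 8 with glucose, 60.5-fold lower (95% counting interval 10.4 to 2436). MDAR3 (AT3G09940), a monodehydroascorbate reductase that recycles ascorbate, had 0, 0.0788, 0.147 and 0.135 CPM with ABA plus glucose and 2.14, 1.59, 1.08 and 1.82 CPM with glucose, a log2 fold change of -3.97 ± 0.48 (adjusted p = 1.64e-06). PER4 (AT1G14540), a secreted peroxidase, averaged 0.123 ± 0.12 CPM with ABA plus glucose and 1.8 ± 0.3 CPM with glucose. Pectin enzymes were among the others. PME47 (AT5G04970), a pectin methylesterase, had 3 counts with ABA plus glucose and 32 with glucose, 12.2-fold lower (3.81 to 62.2), and RGXT2 (AT4G01750), a pectin xylosyltransferase, averaged 0.114 ± 0.072 CPM with ABA plus glucose and 1.54 ± 0.46 CPM with glucose. RGXT2 is 90.428% identical to AT4G01770 over a match of 982 bases, so reads may be split between them. AT5G60520 and AT5G60530, annotated as related to LEA proteins but not in the LEA list below, fell with log2 fold changes of -3.31 ± 0.36 and -3.29 ± 0.34. UGT71C1 (AT2G29750) adds glucose to small molecules and averaged 0.385 ± 0.31 CPM with ABA plus glucose and 2.83 ± 0.38 CPM with glucose. OCT3 (AT1G16390), an organic cation transporter, the multicopper oxidase-like sks15 (AT4G37160), the potassium channel KAT1 (AT5G46240) and the uncharacterized AT1G62870 complete the 12, each without overlap between groups.

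**Figure D1:**
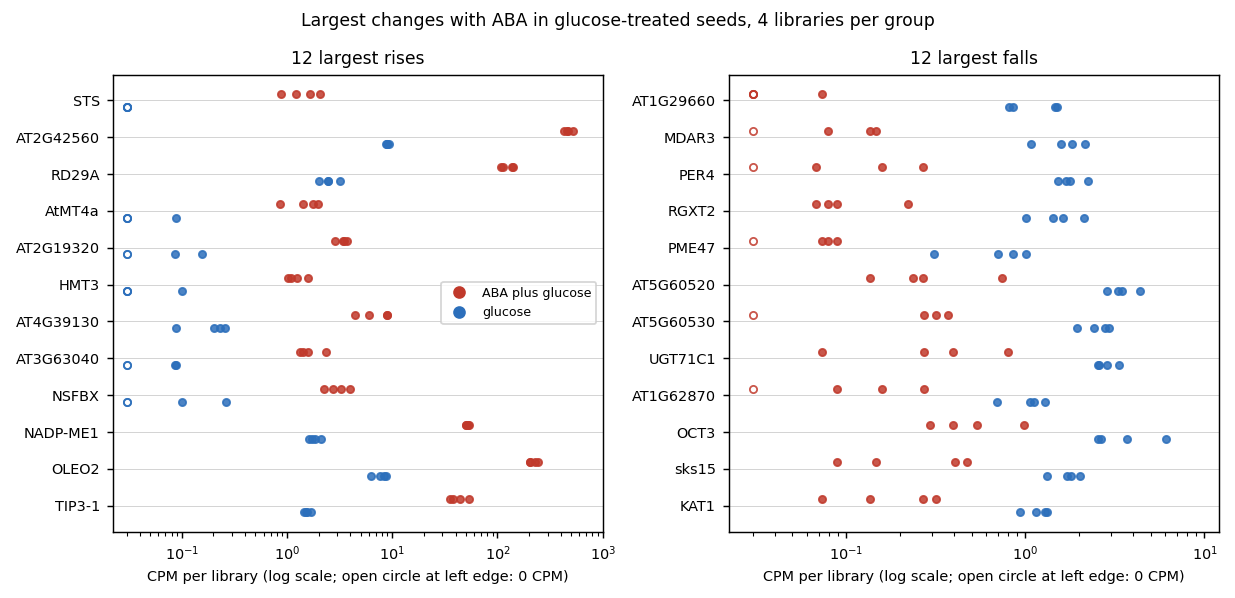
CPM in each of the 4 ABA plus glucose libraries (red) and the 4 glucose libraries (blue) for the 12 largest rises and the 12 largest falls, on a log axis with open circles for 0 CPM. In each of the 24 genes the groups are apart, and the falls are of genes at low levels in both groups while AT2G42560 and OLEO2 average 468 and 218 CPM with ABA plus glucose.

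The 250 bases before the annotated start of the 4 largest rises and the 2 largest falls are shown to set the ABA response beside the letters of these promoters. They come from the RefSeq annotation of TAIR10.1 and are written 5′ to 3′ on the strand of the gene. Capitals mark ACGTG, the core of the ABA response element, and CCGAC, the core of the drought and cold response element, on either strand. The windows lie at chr4:857402-857651 (minus strand) for STS, chr2:17716913-17717162 (minus) for AT2G42560, chr5:21240467-21240716 (plus) for RD29A, chr2:17530444-17530693 (minus) for AtMT4a, chr1:10371425-10371674 (plus) for AT1G29660 and chr3:3059245-3059494 (minus) for MDAR3.
STS: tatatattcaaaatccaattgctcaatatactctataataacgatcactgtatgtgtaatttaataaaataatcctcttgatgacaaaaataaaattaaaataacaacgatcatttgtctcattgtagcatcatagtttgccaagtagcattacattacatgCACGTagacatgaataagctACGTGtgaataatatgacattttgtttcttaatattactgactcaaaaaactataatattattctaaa
AT2G42560: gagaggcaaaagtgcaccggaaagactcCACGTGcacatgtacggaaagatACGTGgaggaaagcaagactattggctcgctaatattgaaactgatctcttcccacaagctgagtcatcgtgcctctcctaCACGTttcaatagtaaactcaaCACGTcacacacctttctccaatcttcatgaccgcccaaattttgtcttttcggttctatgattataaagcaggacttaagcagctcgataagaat
RD29A: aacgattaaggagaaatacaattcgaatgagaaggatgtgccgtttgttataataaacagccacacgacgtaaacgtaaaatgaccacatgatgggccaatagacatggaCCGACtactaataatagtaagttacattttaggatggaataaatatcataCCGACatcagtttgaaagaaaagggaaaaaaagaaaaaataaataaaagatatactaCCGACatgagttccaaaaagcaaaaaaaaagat
AtMT4a: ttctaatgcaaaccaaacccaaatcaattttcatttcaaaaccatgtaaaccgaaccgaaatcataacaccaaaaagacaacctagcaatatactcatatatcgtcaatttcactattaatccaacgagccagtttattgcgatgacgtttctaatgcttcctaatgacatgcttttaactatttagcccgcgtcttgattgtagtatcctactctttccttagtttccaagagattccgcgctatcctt
AT1G29660: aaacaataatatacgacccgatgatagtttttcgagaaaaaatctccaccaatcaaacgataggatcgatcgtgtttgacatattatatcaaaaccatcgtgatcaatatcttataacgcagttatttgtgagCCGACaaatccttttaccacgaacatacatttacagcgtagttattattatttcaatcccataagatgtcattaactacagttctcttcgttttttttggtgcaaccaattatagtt
MDAR3: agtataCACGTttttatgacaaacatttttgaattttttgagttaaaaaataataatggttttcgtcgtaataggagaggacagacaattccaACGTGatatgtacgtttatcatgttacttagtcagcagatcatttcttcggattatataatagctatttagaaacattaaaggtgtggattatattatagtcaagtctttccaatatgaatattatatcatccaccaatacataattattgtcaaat
AT2G42560 holds 5 matches to ACGTG in 4 marked stretches, since CACGTG reads ACGTG on both strands and counts as 2 matches. STS holds 2 and MDAR3, which fell, also 2. RD29A holds 3 matches to CCGAC and none to ACGTG in this window, and AT1G29660 holds 1 CCGAC. AtMT4a has neither.

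Across the same window of all genes, ACGTG on either strand stood in 47.2% of the 965 promoters of genes that rose, in 26.3% of the 1017 of genes that fell and in 23.5% of all 16970 read. Among genes that rose at least 2-fold the share was 62.2% of 325. It was 37 of 47 for the tested LEA and dehydrin genes, 9 of 13 for storage proteins and 6 of 9 for oil body proteins. CACGTG, which contains ACGTG, stood in 25.1% of promoters of genes that rose, in 7.28% of those that fell and in 7.9% of all. CCGAC stood in 19.5% of promoters of genes that rose, 10.9% of those that fell and 13.4% of all. CATGCA, the core of the RY element of seed genes, stood in 13.5% for genes that rose, 9.24% for genes that fell and 7.2% for all, and in 11 of 13 storage protein and 8 of 9 oil body promoters. TGGGCC stood in 13.8% for genes that rose, 7.28% for genes that fell and 18.2% for all, with 1.05% among the 190 genes that fell at least 2-fold. AAACCCTA stood in 2.18% for genes that rose, 2.26% for genes that fell and 3.75% for all. These shares describe letters in a fixed window and were not tested.

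Most of the listed genes of desiccation protection rose. LEA proteins and dehydrins are hydrophilic proteins that shield membranes and enzymes in dry seeds. Their list was set by gene IDs with earlier results of these data known. It leaves out AT5G60520 and AT5G60530, which fell. Of 57 listed genes 47 passed the filter, 38 rose and 1 fell, with a median log2 fold change of 2.41 against 0.01 over all genes tested, and 33 rose at least 2-fold. LEA76 (AT3G15670) had 1567, 1419, 1342 and 1357 CPM with ABA plus glucose and 118, 93.4, 82.1 and 75.5 CPM with glucose, the largest gain in CPM of any called gene. The lowest library with ABA was more than 10 times the highest without it, and the log2 fold change was 3.95 ± 0.13 (adjusted p = 2.75e-16). AT3G17520 averaged 1205 ± 98 CPM with ABA plus glucose and 161 ± 26 CPM with glucose, LEA7 (AT1G52690) averaged 1061 ± 83 CPM with ABA plus glucose and 200 ± 23 CPM with glucose, and EM1 (AT3G51810), an Em protein of mature embryos, averaged 488 ± 29 CPM with ABA plus glucose and 19.2 ± 3.7 CPM with glucose. The one member that fell was SAG21 (AT4G02380), a mitochondrial LEA-type protein first known from senescing leaves, at 1000 ± 72 CPM with ABA plus glucose and 1289 ± 79 CPM with glucose. The 8 members not called were ERD10, COR47, HIRD11, UNE15, LEA26, LEA27, AT4G38410 and AT2G03850, with log2 fold changes between -0.41 (ERD10) and 0.05 (LEA26). LEA genes together took 1.23% to 1.38% of counts with ABA plus glucose and 0.341% to 0.401% with glucose. Without glucose they took 2.13% to 3% with ABA and 0.34% to 0.439% in control seeds.

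Among 17 tested ABA-responsive genes of other kinds, 8 rose and 1 fell. PER1 (AT1G48130), a seed peroxiredoxin, averaged 152 ± 9.6 CPM with ABA plus glucose and 10.5 ± 1.6 CPM with glucose. HVA22B (AT5G62490), an ABA-induced membrane trafficking protein, averaged 285 ± 35 CPM with ABA plus glucose and 28.6 ± 5.1 CPM with glucose, and HB7 (AT2G46680), a homeodomain factor of drought responses, averaged 3.94 ± 0.37 CPM with ABA plus glucose and 1.19 ± 0.13 CPM with glucose. GOLS2 (AT1G56600), galactinol synthase of the raffinose pathway, averaged 4.85 ± 0.57 CPM with ABA plus glucose and 0.517 ± 0.19 CPM with glucose. P5CS1 (AT2G39800), the enzyme that starts proline synthesis, was the member that fell, with 7.43 ± 1 CPM with ABA plus glucose and 9.58 ± 0.71 CPM with glucose (adjusted p = 0.048). Leaving out any 1 of 6 of the 8 libraries ended this call, with an adjusted p of 0.155 without glucose replicate 3.

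Many genes for storage proteins and oil body coats rose. Of 13 storage protein genes, all tested, 8 rose and none fell, with a median log2 fold change of 0.73. The cruciferin CRA1 (AT5G44120) had 1326, 1251, 1253 and 1302 CPM with ABA plus glucose and 128, 137, 162 and 157 CPM with glucose. The lowest library with ABA was thus far above the highest without it, and the log2 fold change was 3.14 ± 0.077 (adjusted p = 2.81e-18). The vicilin-like cupins AT2G28490, AT4G36700 and AT2G18540 rose with log2 fold changes of 3.84 ± 0.099, 3.61 ± 0.13 and 3.11 ± 0.19. CRU3 (AT4G28520) averaged 108 ± 8.7 CPM with ABA plus glucose and 29.4 ± 0.82 CPM with glucose. Among the 2S albumins SESA1 and SESA5 rose, SESA1 just past the threshold (adjusted p = 0.0494), while SESA2, SESA3 and SESA4 had log2 fold changes of 0.46, 0.49 and 0.60 that did not pass. Leaving out any 1 of the 8 libraries ended the SESA1 call (adjusted p = 0.139 without glucose replicate 3), and SESA4 was called without glucose replicate 2 (adjusted p = 0.021). Storage protein genes together took 0.178% to 0.189% of counts with ABA plus glucose and 0.0261% to 0.0278% with glucose.

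Oleosins and caleosins coat the oil bodies of seeds. Of 9 such genes 8 rose, each at least 2-fold, and none fell, with a median log2 fold change of 2.7. OLEO1 (AT4G25140) had 268, 255, 254 and 236 CPM with ABA plus glucose and 11.3, 12.8, 12 and 11.4 CPM with glucose, and OLEO2 (AT5G40420) averaged 218 ± 19 CPM with ABA plus glucose and 7.79 ± 1.1 CPM with glucose. The groups stood apart in both, at log2 fold changes of 4.41 ± 0.11 (adjusted p = 2.81e-18) for OLEO1 and 4.79 ± 0.12 (adjusted p = 3.05e-18) for OLEO2. The caleosins CLO1 and CLO2 rose with log2 fold changes of 2.17 and 2.95, and the leaf-type CLO4 was the member not called, at 0.78 ± 0.11 CPM with ABA plus glucose and 0.852 ± 0.28 CPM with glucose. Of 24 genes of oil breakdown and gluconeogenesis 1 rose and 1 fell (4.17% each, near the 5.82% and 5.95% of all genes tested), with a median log2 fold change of 0.00. Malate synthase (MLS, AT5G03860) averaged 3410 ± 48 CPM with ABA plus glucose and 3204 ± 107 CPM with glucose, and PCK1 (AT4G37870), which makes phosphoenolpyruvate for sugar synthesis, averaged 5499 ± 195 CPM with ABA plus glucose and 5798 ± 148 CPM with glucose. Neither was called. PPDK (AT4G15530) was the member that fell, with 209 ± 7.6 CPM with ABA plus glucose and 251 ± 16 CPM with glucose. KAT5 (AT5G48880), a thiolase, was the one that rose, at 3.97 ± 1 CPM with ABA plus glucose and 2.6 ± 0.43 CPM with glucose; it overlaps AT5G48870 over 160 bases and its counts are not whole in any library and the call was lost without ABA plus glucose replicate 4 (adjusted p = 0.206). Fatty acid and triacylglycerol synthesis did not follow the oil body coats. Of 24 tested genes none rose and 2 fell (8.33%, against 5.95% of all genes tested), the desaturases FAB2 and FAD3. FAB2 (AT2G43710) averaged 125 ± 4.2 CPM with ABA plus glucose and 164 ± 12 CPM with glucose. FAD3 (AT2G29980) averaged 893 ± 29 CPM with ABA plus glucose and 994 ± 21 CPM with glucose. Leaving out any 1 of 7 of the 8 libraries ended the FAD3 call (adjusted p = 0.134 without ABA plus glucose replicate 3).

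**Figure D2:**
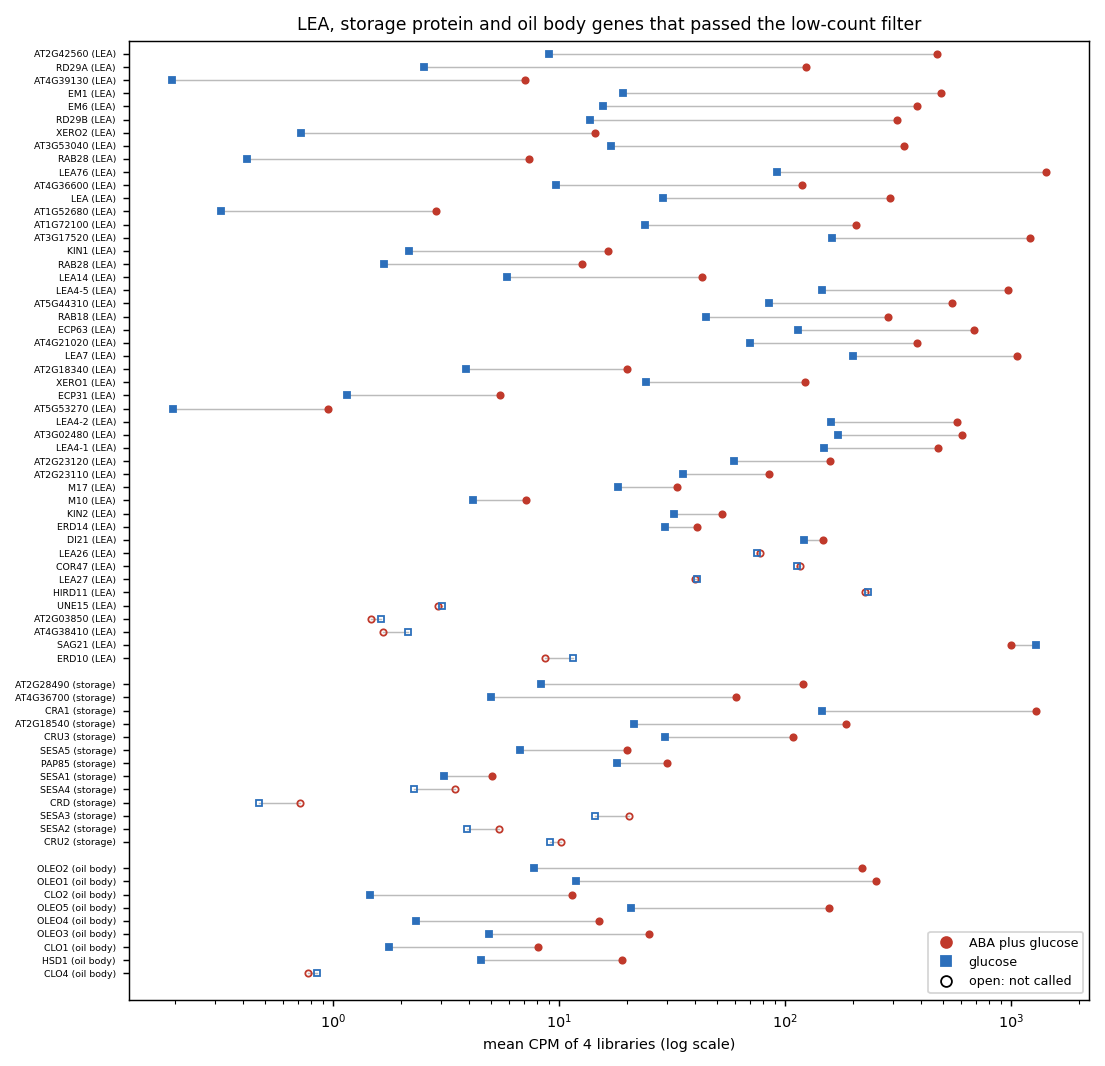
Mean CPM of 4 ABA plus glucose libraries (red circles) and 4 glucose libraries (blue squares) on a log axis for each LEA, storage protein and oil body gene that passed the filter, ordered within each list by log2 fold change; open symbols were not called. LEA76 reached 1421 CPM with ABA plus glucose and 92.2 CPM with glucose, and SAG21 is the filled pair that runs the other way.

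ABA receptor genes moved in both directions. Among 12 tested receptor genes of 14, 5 fell and 2 rose. PYL6 (AT2G40330) had 17.8, 21.7, 21.7 and 19 CPM with ABA plus glucose and 33.5, 33.4, 33.7 and 37 CPM with glucose. Every ABA library was below every glucose library, and the log2 fold change was -0.77 ± 0.092 (adjusted p = 1.42e-06). PYL4 (AT2G38310) averaged 90.3 ± 9.7 CPM with ABA plus glucose and 130 ± 9.9 CPM with glucose, PYL2 (AT2G26040) averaged 151 ± 7.5 CPM with ABA plus glucose and 201 ± 4.4 CPM with glucose, and PYL5 and PYL8 fell with log2 fold changes of -0.29 and -0.23. PYL13 (AT4G18620) rose, with 4.54, 3.63, 3.75 and 5.4 CPM with ABA plus glucose and 1.97, 2.03, 1.16 and 1.32 CPM with glucose. PYL11 also rose, by a log2 fold change of 0.66 ± 0.18. PYR1, PYL1, PYL7, PYL9 and PYL12 were not called; PYL7 overlaps AT4G01030 over 571 bases. PYL3 and PYL10 had 0 counts in all 8 libraries. The smaller calls did not hold with each library left out in turn. They were lost for PYL5 without ABA plus glucose replicate 1 (adjusted p = 0.0626), for PYL8 without glucose replicate 3 (0.0941) and for PYL11 without ABA plus glucose replicate 3 (0.101), and PYL7 was called without glucose replicate 4 (0.046).

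The phosphatases that the receptors block mostly rose. Of 8 tested clade A PP2C genes 7 rose, with a median log2 fold change of 1.04. HAI3 (AT2G29380) had 54.1, 43.8, 46.7 and 44.2 CPM with ABA plus glucose and 12.8, 10.9, 7.51 and 8.1 CPM with glucose. Its groups did not overlap and its log2 fold change was 2.26 ± 0.14 (adjusted p = 1.25e-11). HAI2 (AT1G07430) averaged 35.6 ± 1.4 CPM with ABA plus glucose and 11.6 ± 1.2 CPM with glucose, AHG1 (AT5G51760), a phosphatase of seeds, averaged 127 ± 12 CPM with ABA plus glucose and 41.8 ± 2.1 CPM with glucose, and PP2CA (AT3G11410) averaged 112 ± 6.7 CPM with ABA plus glucose and 67.5 ± 7.7 CPM with glucose. ABI2, HAB1 and HAB2 rose with log2 fold changes of 1.36, 0.56 and 0.28. The HAB2 call was lost without ABA plus glucose replicate 1 (adjusted p = 0.0666). ABI1 (AT4G26080), the classic member of the clade, averaged 77.2 ± 2.3 CPM with ABA plus glucose and 70.7 ± 4.8 CPM with glucose and was not called (adjusted p = 0.222). HAI1 was below the filter, with 24 counts over the ABA plus glucose group and 1 over the glucose group, a ratio of 21 (95% counting interval 3.43 to 864).

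The kinases in the middle of the chain moved little. Of 8 tested SnRK2 genes 1 rose (12.5%, against 5.82% of all genes tested), SNRK2.10 (AT1G60940). It averaged 77 ± 2.2 CPM with ABA plus glucose and 61.4 ± 2 CPM with glucose. SNRK2.2, SNRK2.3 and SNRK2.6, the kinases most tied to ABA, had log2 fold changes of 0.00, -0.00 and -0.21 and were not called. SNRK2.6 was called without glucose replicate 1 (adjusted p = 0.0201).

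Of 8 tested group A bZIP genes 2 rose. ABI5 (AT2G36270), which halts germinated embryos in response to ABA, had 172, 187, 156 and 155 CPM with ABA plus glucose and 65.1, 62.6, 59.5 and 62.4 CPM with glucose. The groups stood far apart, and the log2 fold change was 1.42 ± 0.086 (adjusted p = 1.61e-11). EEL (AT2G41070), a bZIP of late embryos, averaged 11.2 ± 0.72 CPM with ABA plus glucose and 5.33 ± 0.65 CPM with glucose. ABF2, ABF3 and ABF4 had log2 fold changes of 0.32, 0.33 and 0.32, none of which passed. ABF3 passed without ABA plus glucose replicate 3 (adjusted p = 0.0196). The AFP proteins bind ABI5 and dampen its action, and 3 of 4 rose. AFP1 (AT1G69260) averaged 16.6 ± 2.1 CPM with ABA plus glucose and 4.38 ± 1.3 CPM with glucose, AFP3 averaged 8.98 ± 0.91 CPM with ABA plus glucose and 3.31 ± 0.97 CPM with glucose, and AFP2 averaged 69.1 ± 6.5 CPM with ABA plus glucose and 43.1 ± 4.3 CPM with glucose.

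Among 6 tested regulators of seed maturation and dormancy 2 rose. SOM (AT1G03790), a zinc finger protein that represses germination in the dark, had 486, 503, 448 and 461 CPM with ABA plus glucose and 326, 285, 274 and 271 CPM with glucose. All ABA libraries exceeded all glucose libraries, and the log2 fold change was 0.72 ± 0.07 (adjusted p = 6.8e-08). MFT (AT1G18100), a phosphatidylethanolamine-binding protein that acts on germination through ABA and gibberellin, had 7.48, 11.1, 8.98 and 7.42 CPM with ABA plus glucose and 0.343, 0.794, 0.155 and 0.608 CPM with glucose. Its counts are not whole in any library and its exons overlap AT1G18090 on the opposite strand over 606 bases, so part of these reads may belong to that gene. ABI3, the master regulator of seed maturation, and ABI4 had log2 fold changes of 0.18 and -0.19 and were not called. DOG1, the dormancy gene, was below the filter with 16 counts over the ABA plus glucose group and 1 over the glucose group.

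Some genes that make ABA and some that destroy it rose. Of 9 tested synthesis genes 4 rose and none fell. ABA1 (AT5G67030), zeaxanthin epoxidase, had 52.6, 51.5, 47.1 and 50.9 CPM with ABA plus glucose and 29.9, 23.7, 27.4 and 29.9 CPM with glucose, a log2 fold change of 0.87 ± 0.072 (adjusted p = 4.47e-09). NCED5, NCED3 and NCED9, which cleave carotenoids in the committed step, rose with log2 fold changes of 1.32 ± 0.34, 0.88 ± 0.2 and 0.45 ± 0.14, the last with overlapping groups and not called without ABA plus glucose replicate 4 (adjusted p = 0.168). Of 8 tested genes of ABA breakdown, conjugation and transport 3 rose and none fell. CYP707A2 (AT2G29090), the ABA 8′-hydroxylase of imbibed seeds, had 11.1, 9.46, 9.34 and 12.4 CPM with ABA plus glucose and 5.57, 3.44, 2.63 and 2.73 CPM with glucose. Its groups did not overlap. CYP707A1 (AT4G19230), another such enzyme, averaged 32.6 ± 3.3 CPM with ABA plus glucose and 14.4 ± 0.39 CPM with glucose. The exporter ABCG25 (AT1G71960) averaged 120 ± 6.1 CPM with ABA plus glucose and 93.5 ± 5.7 CPM with glucose.

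Gibberellin is the hormone that opposes ABA. Of 12 tested genes of its synthesis and inactivation 1 rose (8.33%) and 2 fell (16.7%), counts that single libraries moved to 0 and 1. GA3OX1 (AT1G15550), the last step of synthesis, averaged 11.5 ± 1.7 CPM with ABA plus glucose and 16.3 ± 2.4 CPM with glucose (log2 fold change -0.49 ± 0.12, adjusted p = 0.00685), with overlapping groups. GA3OX2, at 56.1 ± 7.3 CPM with ABA plus glucose and 71.1 ± 5.9 CPM with glucose, was not called. The inactivating GA2OX2 rose, at 3.17 ± 0.84 CPM with ABA plus glucose and 2.04 ± 0.14 CPM with glucose, and GA2OX8 fell, at 0.379 ± 0.21 CPM with ABA plus glucose and 1.1 ± 0.47 CPM with glucose; without ABA plus glucose replicate 3 neither passed (adjusted p = 0.206 and 0.108). GA3OX2 passed without ABA plus glucose replicate 2 (adjusted p = 0.0475). Of 9 receptor and DELLA genes 2 rose (22.2%) and none fell, with 1 rise left without glucose replicate 1, 2 or 4 or ABA plus glucose replicate 2, 3 or 4. RGL2 (AT3G03450), the DELLA repressor with the main part in germination, had 323, 307, 319 and 312 CPM with ABA plus glucose and 241, 250, 237 and 233 CPM with glucose, a narrow spread in both groups and a log2 fold change of 0.39 ± 0.058 (adjusted p = 3.08e-05). The receptor GID1A rose by 0.24 ± 0.072 on the log2 scale. Leaving out any 1 of 6 of the 8 libraries ended this call (adjusted p = 0.139 without glucose replicate 1). GASA3 (AT4G09600), a seed-type GASA peptide, averaged 9.03 ± 0.93 CPM with ABA plus glucose and 0.6 ± 0.15 CPM with glucose, while the gibberellin-induced GASA4 and GASA6 fell with log2 fold changes of -0.27 and -0.26; GASA6 overlaps AT1G74675 over 206 bases. Neither passed without ABA plus glucose replicate 4 (adjusted p = 0.101 and 0.144). The GASA4 call was ended by leaving out any 1 of 5 of the 8 libraries, and the GASA6 call by any 1 of 7.

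**Figure D3:**
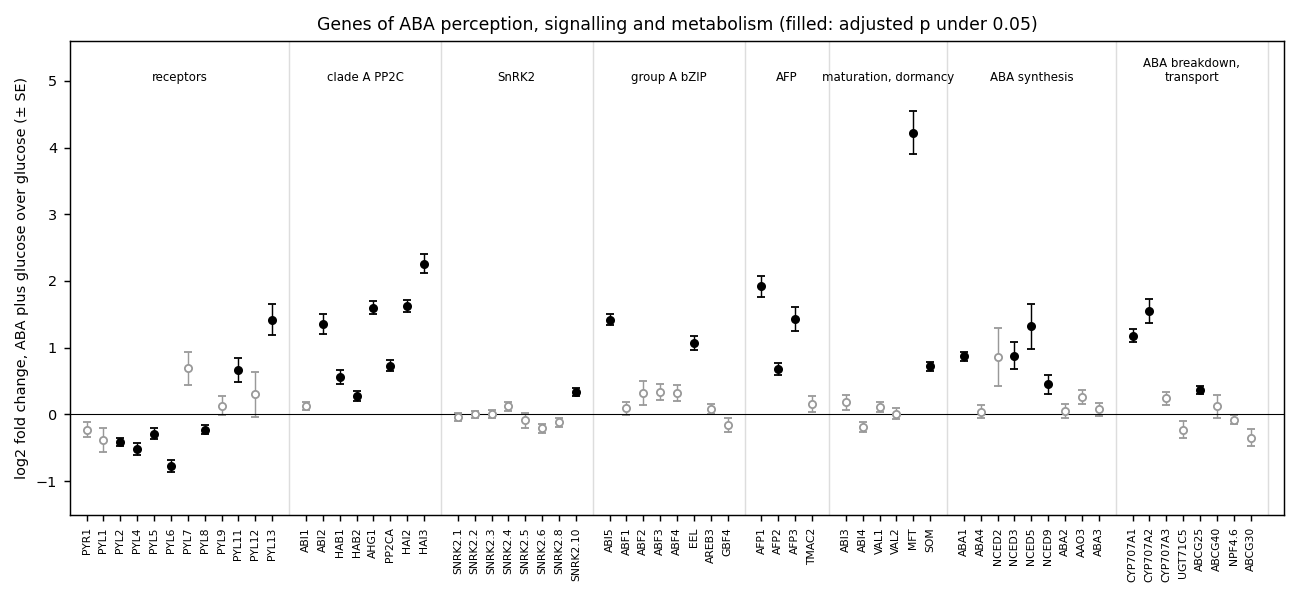
Log2 fold change of ABA plus glucose over glucose with its SE for each tested gene of ABA perception, signalling, maturation control and ABA metabolism; filled points were called. The clade A PP2C points run up to 2.26, the SnRK2 points lie between -0.21 and 0.33, and 5 filled receptor points lie below 0.

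Cell wall genes fell in several families. Xyloglucan endotransglucosylase/hydrolases (XTH) cut and rejoin the xyloglucan tethers of growing walls. Of 33 listed genes 20 were tested, 13 fell and 1 rose, with a median log2 fold change of -0.38. XTH23 (AT4G25810) had 3.56, 3.39, 1.91 and 2.29 CPM with ABA plus glucose and 9.85, 11, 8.74 and 10.5 CPM with glucose. All ABA libraries lay below all glucose libraries, and the log2 fold change was -1.86 ± 0.14 (adjusted p = 1.18e-09). XTH33 (AT1G10550) averaged 1.08 ± 0.54 CPM with ABA plus glucose and 4.52 ± 0.62 CPM with glucose, ATXTH17 (AT1G65310) averaged 3.75 ± 0.6 CPM with ABA plus glucose and 11.7 ± 0.66 CPM with glucose, and XTH18 (AT4G30280) averaged 12.7 ± 1.5 CPM with ABA plus glucose and 30.4 ± 3.5 CPM with glucose. ATXTH17 and XTH18 are 90.694% identical over a match of 1225 bases, so reads may be split between them. The 9 other members that fell had log2 fold changes between -1.07 (XTH4) and -0.25 (XTH16). XTH15 was the one that rose, by 0.58 ± 0.11 on the log2 scale. The XTH16 call was lost with any 1 of 6 of the 8 libraries left out (adjusted p = 0.128 without ABA plus glucose replicate 4).

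Pectin enzymes and structural wall proteins also fell more often than they rose. Of 36 tested pectin methylesterases and inhibitors 11 fell (30.6%) and 4 rose (11.1%). Of 38 tested polygalacturonases and pectate lyases 10 fell (26.3%) and 1 rose (2.63%). Over all genes tested the shares were 5.95% and 5.82%. ATPMEPCRA (AT1G11580), a pectin methylesterase, averaged 863 ± 42 CPM with ABA plus glucose and 1176 ± 90 CPM with glucose, among the 5 largest losses in CPM. PME41 (AT4G02330) averaged 6.15 ± 0.46 CPM with ABA plus glucose and 14.5 ± 3.2 CPM with glucose. PGIP1 (AT5G06860), an inhibitor of polygalacturonases, was the member of its list that rose, with 6.6 ± 0.88 CPM with ABA plus glucose and 4.13 ± 0.8 CPM with glucose. Without ABA plus glucose replicate 4 the falls in that list numbered 6. Of 63 tested extensins and arabinogalactan proteins 14 fell and 2 rose. FLA9 (AT1G03870), a fasciclin-like arabinogalactan protein, had 3.65, 3.86, 3.53 and 2.7 CPM with ABA plus glucose and 20.1, 15.4, 15.4 and 19.8 CPM with glucose. Its log2 fold change was -2.36 ± 0.12 (adjusted p = 7.49e-13), with no overlap. FLA2, AGP18 and AGP4 fell with log2 fold changes of -1.42, -1.75 and -1.07; AGP4 overlaps AT5G10435 over 405 bases. Of 17 tested cellulose synthase and cellulose synthase-like genes 4 fell and none rose, all under 1.5-fold. They were CESA5, CESA6, CSLA2 and CESA1, with log2 fold changes between -0.42 and -0.25. CESA1 did not pass with any 1 of 6 of the 8 libraries left out (adjusted p = 0.145 without ABA plus glucose replicate 3).

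Expansins loosen walls at acid pH, and 4 of 15 tested fell (26.7%) and 1 rose (6.67%), against 5.95% and 5.82% of all genes tested. ATEXPA1 (AT1G69530) had 1456, 1554, 1527 and 1526 CPM with ABA plus glucose and 1941, 1932, 1956 and 1917 CPM with glucose. Libraries within a group lay close together, the groups did not overlap, and the log2 fold change was -0.35 ± 0.054 (adjusted p = 4.07e-05); its counts are not whole in any library. EXPA2 (AT5G05290), the endosperm expansin, averaged 958 ± 38 CPM with ABA plus glucose and 947 ± 19 CPM with glucose and was not called. EXPA4 rose, with 14.5 ± 2 CPM with ABA plus glucose and 7.24 ± 1.4 CPM with glucose. MAN7 (AT5G66460), an endo-beta-mannanase of the kind that softens the endosperm, rose to 107 ± 8.2 CPM with ABA plus glucose, against 60.9 ± 4 CPM with glucose.

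Class III peroxidases are secreted enzymes that cross-link walls or make reactive oxygen. Of 67 listed genes 15 were tested, 7 fell and 1 rose, with a median log2 fold change of -0.57. PER69 (AT5G64100) had 10.9, 11, 12.7 and 13.2 CPM with ABA plus glucose and 40.4, 38.4, 29.6 and 32.8 CPM with glucose, far apart, and the log2 fold change was -1.56 ± 0.11 (adjusted p = 5.04e-10). PER71 averaged 2.48 ± 0.52 CPM with ABA plus glucose and 6.25 ± 0.89 CPM with glucose. PER52 rose, at 1.4 ± 0.68 CPM with ABA plus glucose and 0.59 ± 0.12 CPM with glucose, a call lost without ABA plus glucose replicate 1 (adjusted p = 0.11). GDSL esterases and lipases act on cutin and other surface lipids. Of 45 tested 19 fell and 3 rose, and 10 of the falls were at least 2-fold; 1 rise was left without glucose replicate 2. CDEF1 (AT4G30140), a cutin esterase, averaged 0.45 ± 0.2 CPM with ABA plus glucose and 2.23 ± 0.53 CPM with glucose, and AT4G16220 averaged 0.323 ± 0.25 CPM with ABA plus glucose and 1.6 ± 0.37 CPM with glucose.

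Most lists of membrane transport and of growth signals held more falls than rises, but the aquaporins did not. Of 29 tested genes listed by annotation as NRT1/PTR family transporters 9 fell (31%) and 2 rose (6.9%). Over all genes tested the shares were 5.95% and 5.82%. NPF6.1 (AT5G13400) averaged 9.83 ± 1.9 CPM with ABA plus glucose and 20 ± 1.2 CPM with glucose, and OPT1 (AT5G55930), an oligopeptide carrier, averaged 16.2 ± 0.58 CPM with ABA plus glucose and 30.3 ± 3.7 CPM with glucose. Of 13 tested sugar carriers 4 fell and 1 rose, with 2 falls without ABA plus glucose replicate 2. STP4 (AT3G19930), a hexose importer, averaged 45 ± 2.2 CPM with ABA plus glucose and 69.2 ± 5.6 CPM with glucose, SWEET15 (AT5G13170) averaged 12.6 ± 0.95 CPM with ABA plus glucose and 20.4 ± 2.3 CPM with glucose, and STP13 (AT5G26340) rose, with 17.9 ± 0.94 CPM with ABA plus glucose and 13.1 ± 1.1 CPM with glucose. SWEET1 (AT1G21460), a sugar exporter whose mutant the study also profiled (not analysed here), had 66.5, 59.1, 73.9 and 70.7 CPM with ABA plus glucose and 65.6, 61.9, 60 and 58 CPM with glucose. Its groups overlapped, and it was not called (log2 fold change 0.14 ± 0.087, adjusted p = 0.395). Of 23 tested ion channels and pumps of the plasma membrane 5 fell and none rose, among them SLAH3 (AT5G24030), an anion channel, at 0.471 ± 0.13 CPM with ABA plus glucose and 2.71 ± 0.69 CPM with glucose, and the root potassium channel AKT1 (AT2G26650) at 19.1 ± 1.1 CPM with ABA plus glucose and 24.9 ± 1.9 CPM with glucose. Of 24 tested aquaporins 3 rose (12.5%), TIP3-1, TIP3-2 and NIP1-2, and 2 fell (8.33%), against 5.82% and 5.95% of all genes tested. NIP1-1 (AT4G19030), which fell, averaged 10.4 ± 0.49 CPM with ABA plus glucose and 21.8 ± 3.3 CPM with glucose. Only 1 fall was left without glucose replicate 1, 3 or 4 or ABA plus glucose replicate 2, 3 or 4.

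Of 29 tested auxin carriers 6 fell and none rose. AUX1 (AT2G38120), the main importer, averaged 44.4 ± 4.4 CPM with ABA plus glucose and 59 ± 2.7 CPM with glucose, and the efflux carriers PIN2 and PIN3 fell with log2 fold changes of -0.39 ± 0.073 and -0.40 ± 0.094. Among 74 tested auxin response genes 13 fell and 3 rose, with IAA19 at 0.618 ± 0.073 CPM with ABA plus glucose and 1.53 ± 0.27 CPM with glucose and the SAUR gene AT3G12955 the other way, at 9.08 ± 0.75 CPM with ABA plus glucose and 2.19 ± 0.44 CPM with glucose. Of 80 tested calcium sensors and calcium-dependent kinases 12 fell (15%) and 1 rose (1.25%), against 5.95% and 5.82% of all genes tested. CML24 (AT5G37770), a touch-induced sensor, averaged 13 ± 0.63 CPM with ABA plus glucose and 27.2 ± 4.2 CPM with glucose, with 419 bases shared with AT5G37760. CML5 averaged 3.41 ± 0.34 CPM with ABA plus glucose and 6.81 ± 0.49 CPM with glucose. Leucine-rich repeat kinases gave 14 falls (11.1%, against 5.95% of all genes tested) and 4 rises (3.17%, against 5.82%) among 126 tested.

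Ethylene promotes germination against ABA. Of 21 tested genes of its synthesis and signalling 7 fell (33.3%) and 3 rose (14.3%), against 5.95% and 5.82% of all genes tested. ACO1 (AT2G19590), which makes ethylene from its precursor, had 167, 172, 186 and 179 CPM with ABA plus glucose and 285, 333, 336 and 319 CPM with glucose. The groups did not overlap, and the log2 fold change was -0.85 ± 0.068 (adjusted p = 2.24e-09). Of the ACC synthases that make the precursor, ACS7 fell, with 0.433 ± 0.12 CPM with ABA plus glucose and 1.92 ± 0.96 CPM with glucose, and ACS2 rose, with 0.956 ± 0.33 CPM with ABA plus glucose and 0.0833 ± 0.11 CPM with glucose. The receptors EIN4, ETR2 and ERS1 and the kinase CTR1 fell with log2 fold changes between -0.42 and -0.26, whereas the receptor ERS2 rose by 0.48 ± 0.11. CTR1 did not pass without ABA plus glucose replicate 3 (adjusted p = 0.085). Jasmonate synthesis and JAZ genes gave 3 falls, the lipoxygenases LOX1, LOX4 and LOX6, and 1 rise, TIFY6B, among 16 tested. The shares were 18.8% fallen and 6.25% risen, the latter near that of all genes tested. LOX6 did not pass without ABA plus glucose replicate 3 (adjusted p = 0.0962).

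Transcription factor families each held both directions. Shares risen and fallen were 12% and 10.7% of ERF and DREB factors, 12.3% each of NAC factors and 9.76% and 8.54% of bHLH factors. For MYB factors they were 1.49% and 10.4%, against 5.82% and 5.95% over all genes tested. Among 75 tested ERF and DREB factors 9 rose and 8 fell. DREB2G (AT5G18450) had 38.4, 38.7, 39.1 and 37.5 CPM with ABA plus glucose and 10.6, 9.36, 7.74 and 5.47 CPM with glucose. It barely varied among the ABA plus glucose libraries, and its log2 fold change was 2.2 ± 0.12 (adjusted p = 1.7e-12). ERF6 (AT4G17490) fell, with 1.2 ± 0.34 CPM with ABA plus glucose and 3.12 ± 0.043 CPM with glucose. Of 57 NAC factors 7 rose and 7 fell, with NAC032 (AT1G77450) at 53.2 ± 4.2 CPM with ABA plus glucose and 21.4 ± 1.5 CPM with glucose and NAC089 (AT5G22290) at 102 ± 7.7 CPM with ABA plus glucose and 64.9 ± 2 CPM with glucose. Of 82 bHLH factors 8 rose and 7 fell, with PIF6 (AT3G62090), a phytochrome-interacting factor of seeds, at 4.92 ± 0.43 CPM with ABA plus glucose and 1.1 ± 0.21 CPM with glucose; PIF6 overlaps AT3G62080 over 231 bases. Of 33 tested WRKY factors 6 fell (18.2%) and 2 rose (6.06%), with falls of WRKY18 at 32.3 ± 1.6 CPM with ABA plus glucose and 49.4 ± 1.8 CPM with glucose and WRKY40 at 1.59 ± 0.26 CPM with ABA plus glucose and 3.54 ± 0.78 CPM with glucose. Among 67 MYB factors 7 fell and 1 rose, AtMYB74, at 0.925 ± 0.18 CPM with ABA plus glucose and 0.113 ± 0.092 CPM with glucose. Of 256 tested F-box proteins 13 rose (5.08%, against 5.82% of all genes tested) and 2 fell (0.781%, against 5.95%). Single libraries moved some of these counts. The ERF and DREB rises numbered 5 without glucose replicate 2 and also without ABA plus glucose replicate 2. NAC falls numbered 4 without glucose replicate 1 and also without ABA plus glucose replicate 3 or 4, and F-box rises 8 without ABA plus glucose replicate 2. F-box falls numbered 4 without glucose replicate 3. WRKY rises numbered 0 without glucose replicate 1 or 2 and 1 without glucose replicate 3 or 4 or ABA plus glucose replicate 1, 2 or 3, and MYB rises 2 without glucose replicate 3 or ABA plus glucose replicate 2.

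Secondary metabolism and detoxification shared in the change. Of 14 tested genes listed for the flavonoid pathway by annotation 7 rose and none fell, with a median log2 fold change of 0.44. CHI1 (AT3G55120), the chalcone isomerase of the pathway, had 11, 8.36, 9.79 and 9.11 CPM with ABA plus glucose and 3.51, 1.77, 1.78 and 2.33 CPM with glucose, a log2 fold change of 2.02 ± 0.18 (adjusted p = 1.03e-08) without overlap. CYP75B1 (AT5G07990), flavonoid 3′-hydroxylase, averaged 81 ± 7.5 CPM with ABA plus glucose and 35.9 ± 1.8 CPM with glucose and FLS1 (AT5G08640), flavonol synthase, averaged 16.1 ± 1.2 CPM with ABA plus glucose and 8.51 ± 1.2 CPM with glucose. The 4 other members of this list that rose, CHI3, CHS, F3H and the fatty acid-binding protein FAP1, had log2 fold changes of 0.84, 0.71, 0.48 and 0.31. Of 40 tested glutathione S-transferases 7 rose (17.5%) and 1 fell (2.5%), against 5.82% and 5.95% of all genes tested. GSTF10 (AT2G30870), which fell, averaged 25.1 ± 2.2 CPM with ABA plus glucose and 42.5 ± 1.4 CPM with glucose. Leaving out glucose replicate 4 left 3 rises, and leaving out replicate 3 of either group left 4. Cytochromes P450 gave 17 rises (16%) and 18 falls (17%) among 106 tested, and UDP-glycosyltransferases 16 rises (18.8%) and 11 falls (12.9%) among 85.

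Carbohydrate genes showed scattered calls. Shares risen and fallen were 20% and 13.3% of trehalose phosphate genes and 13.3% and 6.67% of sugar starvation genes. For starch genes they were 7.69% and 2.56%, against 5.82% and 5.95% over all genes tested. Of 8 tested raffinose family genes 3 rose (37.5%), STS, GOLS2 and AGAL1, and 2 fell (25%). DIN10 (AT5G20250), a raffinose synthase-like gene first found in darkened leaves, had 574, 580, 575 and 581 CPM with ABA plus glucose and 881, 912, 875 and 920 CPM with glucose. This was among the 5 largest losses in CPM, and the log2 fold change was -0.64 ± 0.061 (adjusted p = 4.74e-08). Of 15 tested trehalose phosphate genes 3 rose and 2 fell, with TPPG (AT4G22590), a trehalose phosphate phosphatase, at 9.28 ± 1.1 CPM with ABA plus glucose and 2.55 ± 0.57 CPM with glucose and TPS6 (AT1G68020) at 39.2 ± 1.1 CPM with ABA plus glucose and 22.7 ± 1.7 CPM with glucose. Of 15 sugar starvation genes 2 rose, ASN1 and DRM1, and 1 fell. ASN1 (AT3G47340), asparagine synthetase, averaged 1.44 ± 0.27 CPM with ABA plus glucose and 0.311 ± 0.078 CPM with glucose. Of 39 starch genes 3 rose and 1 fell, with 1 rise left without ABA plus glucose replicate 1. The largest single loss in CPM was of CP1 (AT4G36880), a cysteine proteinase of reserve breakdown, with 2299, 2504, 2430 and 2294 CPM with ABA plus glucose and 3316, 3131, 2779 and 3214 CPM with glucose. The groups did not overlap and the log2 fold change was -0.38 ± 0.08 (adjusted p = 0.00148).

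Large housekeeping groups were almost free of calls, with shares under those of all genes tested. Of 249 tested cytosolic ribosomal protein genes 4 rose and none fell, of 419 pentatricopeptide repeat proteins 1 rose and 1 fell, of 104 ribosome biogenesis factors 2 fell, and of 83 proteasome subunits 3 rose, 1 without glucose replicate 1 or 3 or ABA plus glucose replicate 1 or 4. Of 43 nuclear photosystem and light-harvesting genes 1 rose, and of 13 Calvin cycle genes none was called. Of 79 cyclins and cyclin-dependent kinases 2 rose and 1 fell. SMR5, an inhibitor of those kinases, was the largest rise, at 1.56 ± 0.48 CPM with ABA plus glucose and 0.132 ± 0.2 CPM with glucose, though its counts are not whole in any library. Among 59 DNA replication genes 3 fell and 1 rose, with PCNA at 17.1 ± 0.84 CPM with ABA plus glucose and 20.7 ± 1.7 CPM with glucose, not called without glucose replicate 1 (adjusted p = 0.0969). The falls in this list numbered 0 without glucose replicate 1 or 3 and 1 without glucose replicate 2 or ABA plus glucose replicate 1, 2 or 3. Histones had 5 rises among 45, a share above that of all genes, and 3 without glucose replicate 4. The ribosomal protein rises numbered 2 without glucose replicate 1 and also without ABA plus glucose replicate 1. HIS1-3 (AT2G18050), the drought-induced linker histone, averaged 13.4 ± 1.3 CPM with ABA plus glucose and 8.17 ± 1.3 CPM with glucose.

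**Figure D4:**
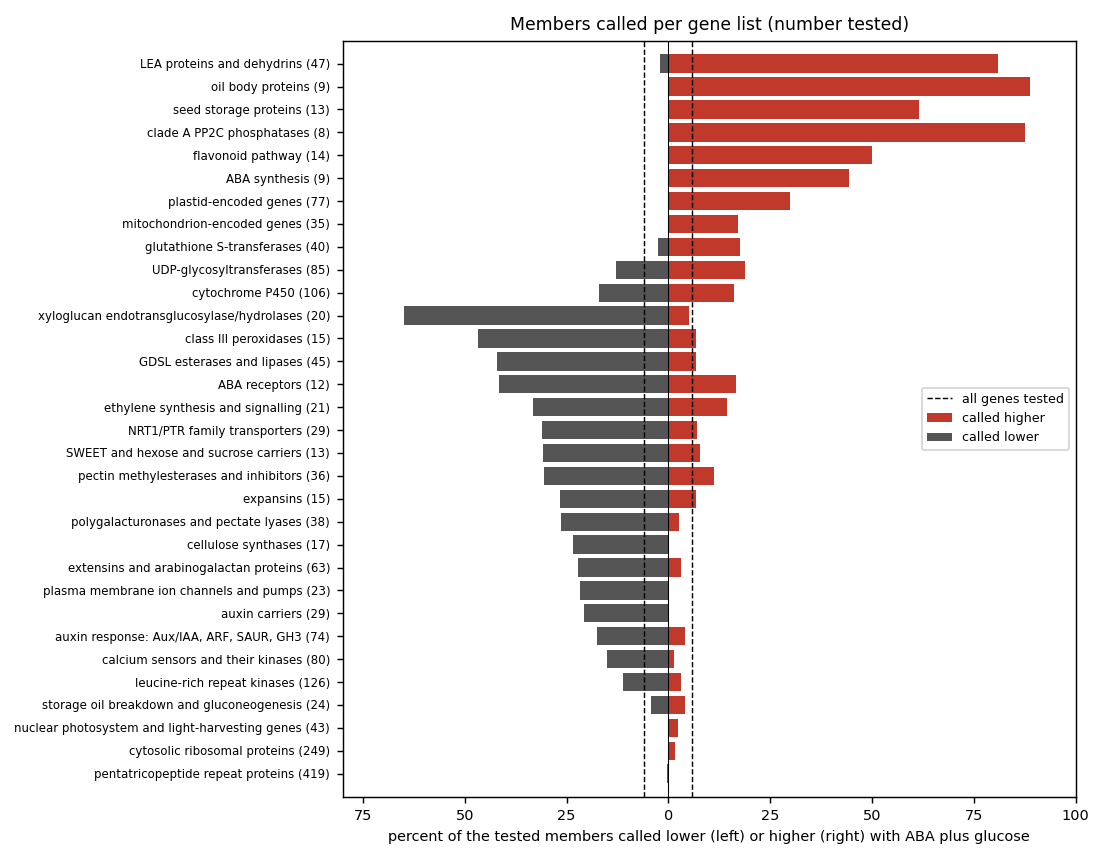
Percent of the tested members of 32 gene lists called higher (red, right) or lower (grey, left) with ABA plus glucose, with the number tested in brackets and dashed lines at the shares over all genes tested, 5.82% and 5.95%. The LEA, oil body and PP2C bars are the longest on the right, with 38 of 47, 8 of 9 and 7 of 8 members called, and the XTH bar, with 13 of 20, is the longest on the left.

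Genes encoded in the organelles formed a separate group of rises. Of 77 tested plastid-encoded genes 23 rose, or 29.9%, and none fell, and of 35 tested mitochondrion-encoded genes 6 rose and none fell, with median log2 fold changes of 0.40 and 0.43. ATPE (ATCG00470), a subunit of the plastid ATP synthase, had 199, 227, 273 and 216 CPM with ABA plus glucose and 106, 77.3, 68.8 and 115 CPM with glucose. The groups did not overlap, and the log2 fold change was 1.32 ± 0.19 (adjusted p = 2.57e-05). PSBM (ATCG00220), a small protein of photosystem II, averaged 23.5 ± 3.5 CPM with ABA plus glucose and 10.6 ± 2.4 CPM with glucose, and RPOC2 (ATCG00170), a subunit of the plastid RNA polymerase, averaged 55.1 ± 9.6 CPM with ABA plus glucose and 34.3 ± 4.4 CPM with glucose. YCF1.2 (ATCG01130), the largest gain in CPM outside the LEA and storage genes, averaged 2909 ± 297 CPM with ABA plus glucose and 2067 ± 202 CPM with glucose, with counts that are not whole in any library. The 23 include both copies of rpl2, which have identical values, so their reads were shared. Plastid genes together took 0.76% to 0.939% of counts with ABA plus glucose and 0.555% to 0.676% with glucose. Without glucose they took 0.604% to 0.792% with ABA and 0.672% to 1.04% in control seeds. The ABA plus glucose libraries thus lay within the range of the control libraries. Their mitochondrial counterparts took 0.0256% to 0.037% with ABA plus glucose and 0.0219% to 0.0276% with glucose, and these ranges overlap. Without glucose the mitochondrial share was 0.0193% to 0.0271% with ABA and 0.0259% to 0.0429% in control seeds. Of the mitochondrial rises, 1 was left when replicate 2 of either group was dropped, 2 when glucose replicate 3 was, and 3 when glucose replicate 4 or ABA plus glucose replicate 3 was. Per the labels the libraries were made with an mRNA kit from total RNA.

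The ABA effect without glucose, from 8 other libraries, gave 2749 rises (16.1%) and 3075 falls (18%). ABA replicate 3 stood apart from the other ABA libraries, with a chi-square per gene between counts of 20.7 to 23.4 against each of them and 2.55 to 3.48 among them, and LEA genes took 3% of its counts and 2.13% to 2.36% of theirs. Without ABA replicate 3 the effect gave 3025 rises and 3386 falls. Control replicate 1 also stood apart, at 7.11 to 8.6 against the other control libraries and 1.85 to 3.25 among them. Plastid genes took 1.04% of its counts and 0.672% to 0.852% of theirs. Without control replicate 1 the effect gave 2649 rises and 2784 falls. Of the 994 genes that rose with ABA in glucose, 835 also rose with ABA alone (84% of these and 30.4% of the rises with ABA alone), 13 fell and 146 were not called. Of the 1017 that fell, 905 also fell with ABA alone (89% of these and 29.4% of the falls with ABA alone), 2 rose and 110 were not called. The test of the difference between both ABA effects, the interaction, called 904 genes, or 5.29%. This count depended on single libraries, falling to 561 if ABA plus glucose replicate 3 was left out, to 598 or 590 if glucose replicate 3 or 4 was, and reaching 1433 if ABA replicate 3 was. Here it is written as the ABA effect with glucose minus the ABA effect without. It was called for 21 of the 47 tested LEA genes, whose median log2 fold change was 2.41 with glucose and 3.37 without. With ABA replicate 3 left out the called interactions of LEA genes again numbered 21 and the median without glucose was 3.31; over all 16 libraries left out in turn they numbered 14 to 21. For LEA76 the interaction was -1.01 (adjusted p = 0.00081) and for CRA1 -0.92 (adjusted p = 1.89e-05), so both rose less where glucose was present. For the receptors PYL4 and PYL6 it was 0.65 and 0.89, a smaller fall with glucose, and for ABI5 it was -0.79. Of the 43 nuclear photosystem genes 25 fell with ABA alone and none did with glucose present. The interaction was called for 10 of them, or 6 without glucose replicate 3, ABA replicate 4 or ABA plus glucose replicate 1 or 3. Their list took 0.124% to 0.132% of counts in control seeds and was already lower with glucose alone, at 0.103% to 0.111%. It took 0.102% to 0.11% with ABA and 0.102% to 0.107% with ABA plus glucose. Only 1 of 9 oil body genes, OLEO5, had a called interaction, and that call was lost in 12 of 24 alternatives, 11 of them with 1 library left out (adjusted p from 0.0521 to 0.102).

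In 15 genes both ABA effects were called and pointed in opposite directions. Such genes numbered 28 without ABA replicate 3, 4 without control replicate 1, 9 without control replicate 4 or glucose replicate 2, and 8 without glucose replicate 4 or ABA plus glucose replicate 3. The 15 genes, and NIR1, GPT2, SUS1, PDC1 and BT2 below, were chosen after their values were seen. The 13 that rose with glucose and fell without it include 3 plastid genes (RPS3, RPOC2, CLPP1), 3 mitochondrial genes (ATMG00090, ORF149, NAD1B) and AT2G07708 and AT2G07725, which lie in the stretch of chromosome 2 that resembles the mitochondrial genome. RPS3 (ATCG00800), a plastid ribosomal protein, had 577, 667, 621 and 588 CPM with ABA plus glucose and 476, 385, 407 and 448 CPM with glucose. Without glucose it had 490, 408, 434 and 541 CPM with ABA and 722, 585, 436 and 643 CPM in control seeds. The first pair of groups did not overlap and the second did, with an interaction of 0.86 ± 0.16 (adjusted p = 0.00212). The 5 nuclear genes of other function are AT1G04770, AT3G05937, SOT12, ERF8 and AT5G09570, with ABA effects of 0.30 to 1.61 with glucose and -0.98 to -0.23 without. AT5G09570 was among the lowest, at 0.541 ± 0.26 CPM with ABA plus glucose, 0.168 ± 0.1 CPM with glucose, 0.532 ± 0.17 CPM with ABA and 1.04 ± 0.16 CPM in control seeds, and its groups overlapped. Many of these small calls with glucose were lost with 1 library left out. For CLPP1 and AT2G07725 leaving out any 1 of 7 of the 8 libraries did this. For AT3G05937 only 1 library did. The adjusted p was 0.188 for AT5G09570 without ABA plus glucose replicate 4, 0.0738 for ERF8 without glucose replicate 2, 0.0535 for AT3G05937 without glucose replicate 3 and 0.12 for CLPP1 without ABA plus glucose replicate 3. Without ABA plus glucose replicate 2 it was 0.173 for ATMG00090, 0.155 for AT2G07725 and 0.0803 for AT2G07708. ORF149 (0.0644, without glucose replicate 3) and NAD1B (0.0662, without ABA plus glucose replicate 3) were also lost.

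The 2 genes of the opposite kind were both nitrate reductases, the enzymes that start nitrate assimilation. NIA1 (AT1G77760) had 347, 381, 348 and 388 CPM with ABA plus glucose and 459, 426, 437 and 451 CPM with glucose. Without glucose it had 336, 355, 324 and 352 CPM with ABA and 254, 273, 286 and 282 CPM in control seeds. Neither pair overlapped, the first falling by 0.28 and the second rising by 0.32 on the log2 scale, with an interaction of -0.60 ± 0.082 (adjusted p = 0.000158). NIA2 (AT1G37130) had 60.2, 62.7, 60.9 and 70.2 CPM with ABA plus glucose and 89.9, 88.4, 96.5 and 87.9 CPM with glucose, against 50.1 ± 5.1 CPM with ABA and 39.1 ± 3.6 CPM in control seeds. Its interaction was -0.87 ± 0.11 (adjusted p = 7.89e-05). NIR1 (AT2G15620), nitrite reductase and the next enzyme, averaged 117 ± 4.3 CPM with ABA plus glucose, 146 ± 1.5 CPM with glucose, 110 ± 0.88 CPM with ABA and 113 ± 0.77 CPM in control seeds, an interaction of -0.27 (adjusted p = 0.023; 0.0582 without ABA plus glucose replicate 4).

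Some genes of sugar use showed the larger ABA effect with glucose. Among genes called with glucose, most of those with a called interaction went the other way. The interaction was called for 241 of the 994 rises and 183 of the 1017 falls with glucose. In 188 of these rises and 171 of these falls the ABA effect was smaller with glucose. Among sugar genes STP4 and DIN10 fell less with glucose (interactions 0.65 and 0.66) and TPS6 rose less (-0.79). GPT2 (AT1G61800), a plastid glucose-6-phosphate carrier that sugar induces, had 21.9, 22.1, 21.6 and 20 CPM with ABA plus glucose and 93.7, 85.1, 76.3 and 86 CPM with glucose, a log2 fold change of -2.0 ± 0.072. With ABA alone it averaged 9.5 ± 0.85 CPM, and in control seeds 18.7 ± 0.56 CPM, so the interaction was -1.02 ± 0.11 (adjusted p = 1.89e-05). SUS1 (AT5G20830), sucrose synthase, averaged 17.5 ± 1.6 CPM with ABA plus glucose and 25.5 ± 1.6 CPM with glucose. It averaged 13.2 ± 2.8 CPM with ABA and 12.9 ± 1.7 CPM in control seeds, and its interaction of -0.59 (adjusted p = 0.036) was lost with any of 8 libraries left out (adjusted p from 0.0515 to 0.0795). PDC1 (AT4G33070), pyruvate decarboxylase of fermentation, averaged 196 ± 6.6 CPM with ABA plus glucose and 442 ± 33 CPM with glucose, beside 131 ± 3.3 CPM with ABA and 210 ± 17 CPM in control seeds. GBSS1 (AT1G32900), granule-bound starch synthase, fell to 30.2 ± 2.9 CPM with ABA plus glucose, against 43.9 ± 3.2 CPM with glucose, and was not called without glucose, at 28.7 ± 3.6 CPM with ABA and 24.6 ± 2.1 CPM in control seeds. Its interaction was -0.77 (adjusted p = 0.000831). BT2 (AT3G48360), a sugar- and nitrate-responsive BTB protein, averaged 15.1 ± 1.6 CPM with ABA plus glucose and 25.2 ± 2.8 CPM with glucose, beside 20.1 ± 1.9 CPM with ABA and 20.4 ± 0.86 CPM in control seeds.

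**Figure D5:**
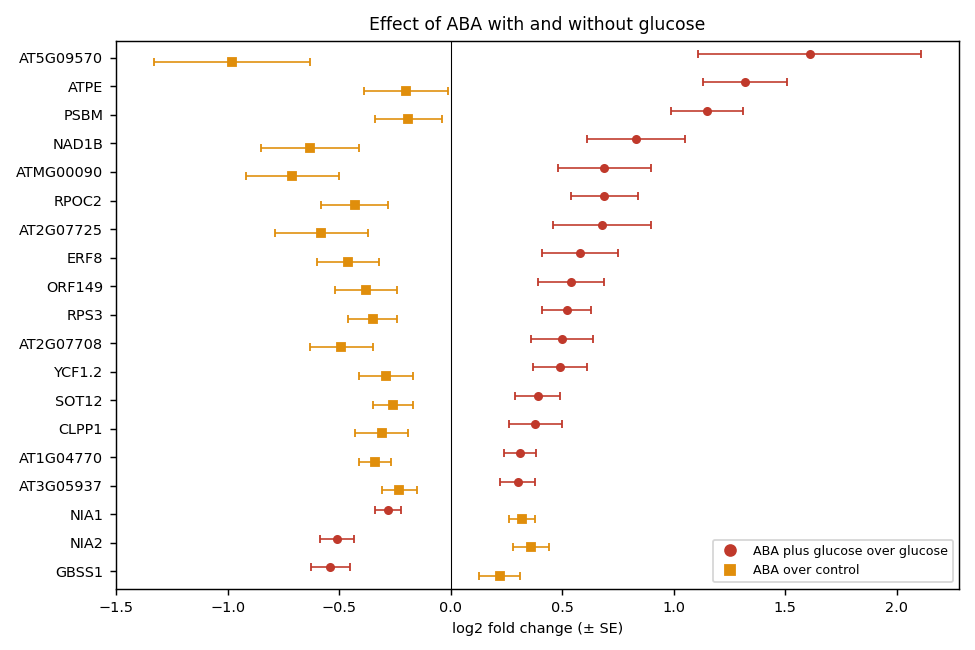
Log2 fold change with its SE of ABA plus glucose over glucose (red circles) and of ABA over control (orange squares) for the 15 genes called in opposite directions and for ATPE, PSBM, YCF1.2 and GBSS1. NIA1, NIA2 and GBSS1 lie below 0 with glucose present and above 0 without it, and the organelle genes lie the other way round.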

How the data were processed

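Whole-seed mRNA libraries (KAPA mRNA HyperPrep, paired-end reads, per the labels' protocols) were analysed from 16 wild-type samples, 4 in each group. Per the submitters' processing notes, the tools were Trimmomatic 0.38, kallisto 0.44.0 and sleuth. The genome build or transcriptome is not given in the sources used here. The deposited files hold the authors' estimated counts per gene, and per the file headers a normalized signal, the TPM column, which served as an alternative. The files hold 16 columns of other samples, not used here. Estimated counts were rounded, where the plan had foreseen counts.

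One edgeR 4.0.16 quasi-likelihood fit (R 4.3.3) used 4 group means over all 16 libraries, TMM scaling and filterByExpr with a minimum count of 10, leaving 12 residual degrees of freedom. It was tested on simulated data. CPM are scaled by TMM library sizes. Fold changes are ABA plus glucose over glucose, and a floor is 3 counts. Intervals and floors cover counting error only. The common biological coefficient of variation was 7.88%.

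Of 27655 gene IDs, 27445 matched RefSeq TAIR10.1, which gave names, promoters and overlaps. Genes sharing at least 90% identity over 150 bases were taken as copies. Named genes were the 12 largest rises and falls without overlap, the 5 largest gains and losses in CPM, the members of the ABA and gibberellin lists, and up to 4 called members per other list. Further list members and the genes with opposite effects were chosen after their values were seen. Members and lists were chosen with earlier results of these data known. Alternatives were upper-quartile and RLE scaling, other filters, the 8 libraries alone, DESeq2 1.42.0, a robust fit, limma 3.58.1 on log2 of the deposited signal with a pseudocount of 1, a replicate block and leaving out each library.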

Additional observations from a re-analysis of the deposited data

Results flagged for a closer look

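AT1G29660 had 0.0736 CPM in ABA plus glucose replicate 3 and 0 CPM in the other 3 libraries of that group, which is 1 count. PYL6 had 37 CPM in glucose replicate 4 and 33.4 to 33.7 CPM in the other glucose libraries. These 2 libraries stood far from the rest of their group among 64 groups of 4 values examined, and chance marks about 1 in 20.

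For 71 named genes the ABA effect with glucose differed from that without it by the interaction test of edgeR at an adjusted p under 0.05. The values are log2 differences, the effect with glucose minus the effect without. Negative differences were those of AT1G62870 -2.31, LEA7 -1.33, HB7 -1.16, NCED9 -1.14, GPT2 -1.02, LEA76 -1.01, AT3G17520 -0.99, CRA1 -0.92, AT4G36700 -0.88, NIA2 -0.87, ABF4 -0.82, RD29A -0.82, ABI5 -0.79 and TPS6 -0.79. Further negative differences were those of EM1 -0.78, GBSS1 -0.77, AHG1 -0.74, BT2 -0.73, MAN7 -0.72, HAI2 -0.71, ABA1 -0.71, HIS1-3 -0.71, HVA22B -0.68, DREB2G -0.60, NIA1 -0.60, SUS1 -0.59, HAB1 -0.58 and OLEO5 -0.54. Negative differences nearest 0 were those of DRM1 -0.54, PER1 -0.52, NAC089 -0.52, FAB2 -0.51, PDC1 -0.50, AGAL1 -0.44, CYP75B1 -0.42, SOM -0.39 and NIR1 -0.27. Positive differences were those of AUX1 0.40, ABI1 0.42, GASA6 0.42, CP1 0.48, ATEXPA1 0.50, XTH16 0.50, AT3G05937 0.53, XTH4 0.54, PYL5 0.57, GA3OX2 0.60, SOT12 0.65, AT1G04770 0.65, STP4 0.65 and PYL4 0.65. Larger positive differences were those of DIN10 0.66, LOX1 0.66, CLPP1 0.70, YCF1.2 0.78, RPS3 0.86, PYL6 0.89, ORF149 0.92, AT2G07708 0.98, ERF8 1.04, PYL1 1.04, SESA3 1.1, RPOC2 1.12, TIP3-1 1.16 and AT2G07725 1.26. The largest positive differences were those of PSBM 1.34, ATMG00090 1.40, NAD1B 1.47, ATPE 1.52, AT5G09570 2.59 and AtMT4a 3.48. Some of these calls were lost with 1 library left out. The number of libraries, of 16, that ended the call when left out was 14 for GA3OX2, 13 for AGAL1, 12 for DREB2G and GASA6, 11 for AT1G62870, HVA22B, OLEO5, PER1 and TIP3-1 and 10 for SESA3. It was 9 for RD29A, 8 for HIS1-3 and SUS1, 7 for NAC089, 6 for HB7, 3 for AtMT4a and 2 for CYP75B1, PYL1 and SOM. It was 1 for AT5G09570, AUX1, HAB1 and NIR1. The highest adjusted p reached in this way was 0.158, for PER1.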

How the results depend on the processing

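All 2011 calls kept their direction under the 17 alternatives in which they could be tested, and between 78.3% and 99.7% kept their call. The rises numbered 809 to 877 and the falls 791 to 965 when 1 of the 8 libraries compared was left out. They were not recounted with an ABA or control library left out. The interaction calls numbered 561 to 1433 when 1 of all 16 libraries was left out. Chosen after seeing the data, leaving out each library for the ABA effect without glucose gave 2466 to 3025 rises and 2628 to 3386 falls. With only the 8 libraries compared in the fit, 1554 genes fell and 1263 rose. Upper-quartile scaling gave 901 rises and 1184 falls, and DESeq2 989 and 1039. No scaling moved the median of all genes by more than 0.013 from 0. Whether the replicate numbers pair the samples cannot be settled from these counts. Same-numbered libraries had deviations correlated at 0.0486, -0.0658, 0.0327 and -0.0361, and differently numbered ones at -0.0728 to 0.157. The replicate block gave 972 rises, 1019 falls and 938 interaction calls. Among the named genes, 164 of 3739 recomputed folds lost the call, 17 gained it and none reversed. The number of the 8 libraries compared that ended a call when left out was 7 for GASA6, FAD3, CLPP1 and AT2G07725. It was 6 for GID1A, XTH16, CESA1, LOX6, P5CS1 and AT5G09570, and 5 for GA2OX2, GA2OX8, GASA4, NCED9, KAT5, ERF8 and ATMG00090. For PCNA, HAB2, PYL11, AT2G07708 and ORF149 it was 3, for PYL5, PYL8, CTR1, PER52 and NAD1B 2, and for AT3G05937 1. Of 1700 recomputed interactions called for named genes, 191 lost the call and none reversed. Fitted folds of genes with few counts depend most on the setting, between 0.66 and 7.31 on the log2 scale for STS and between -6.83 and -0.87 for AT1G29660. A count of 0 allows up to 0.304 CPM in the shallowest library, which limits what can be said of genes below it.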
